A study of Mus musculus with 9 samples.

Results

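The genes described here encode the collagens, laminins and other structural proteins of the extracellular matrix, and the integrins, the receptors by which cells hold on to it. They were taken from the gene table by name: every protein-coding gene whose symbol follows the naming pattern of collagen chains, laminin chains or integrin subunits, together with Fn1, Nid1, Nid2, Hspg2, Agrn, Sparc, Tgfbi, Loxl2 and Vtn. This gave 95 of 54532 genes: 11 fibrillar collagen chains, 33 chains of network and other collagens, 11 laminin chains, 18 integrin alpha and 9 integrin beta subunits, the 9 other matrix proteins, and 4 genes whose names match the pattern without being integrin subunits (Itgb1bp1, Itgb1bp2, Itgb3bp and Itgbl1). Of the 95, 70 passed the filter on low counts and were tested among 16178 genes. The 25 others were measured at group means of 0.568 CPM (library-scaled counts) or less, the highest being Itgb3 in ABSCs, and Itgb6 had 0 counts in every library.

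Basement membranes are thin sheets of matrix under epithelia. Laminin trimers of an alpha, a beta and a gamma chain form a first network at the cell surface, trimers of collagen IV form a second one, and nidogens, perlecan (Hspg2) and agrin (Agrn) join and load both. Integrins are pairs of an alpha and a beta subunit: those built on Itgb1 with Itga3 or Itga6 bind laminins, those with Itga1 or Itga2 bind collagens, and Itga5 with Itgb1 or Itgav with Itgb5 bind proteins such as fibronectin and vitronectin that carry an arginine-glycine-aspartate motif. In the mouse embryo the epiblast, from which epiblast stem cells descend, sits on a laminin and collagen IV basement membrane at implantation.

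RNA was sequenced from 9 libraries of cultured mouse stem cells of 1 strain (Sv129 x GOF/GFP F1), 3 libraries from each of 3 cell types. AFSCs, labelled as resembling epiblast stem cells, were derived from blastocysts on plates coated with fibronectin, in Activin A and bFGF (passage 15 to 20). ALSCs were AFSCs moved for more than 5 passages into Activin A and leukaemia inhibitory factor (passage 20 to 25), and ABSCs, labelled as resembling trophoblast stem cells, were AFSCs moved for more than 5 passages into Activin A and BMP4 (passage 25 to 30). The recipe given here for ALSCs is printed in the protocol under the abbreviation of the ABSCs medium. Activin A and the serum-free N2 and B27 basic medium were common to all 3, and the coating of later passages is not stated. Passage, the RNA kit (a second one is named for ALSCs) and the medium cannot be told apart from the cell type. The comparisons ask what each change of medium goes with and how ABSCs and ALSCs differ.

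Counts on genes ran from 18978651 in ALSCs 2 to 21578737 in AFSCs 3, and 3 counts, the most that a count of 0 leaves possible, equal 0.138 to 0.157 CPM in a library. The 95 genes held 0.372% to 0.423% of the counts. Levels below are CPM scaled by TMM factors, each as mean ± SD of n = 3 libraries or library by library in the order 1, 2 and 3, and genes are set beside each other only as RPKM, the same values per kilobase of the table's gene length. Rose and fell are used of genes with an edgeR adjusted p, taken over all 16178 genes, under 0.05. Libraries numbered 1 stood apart from numbers 2 and 3 in all 3 cell types: of the 70 genes, 10 were highest in library 1 of every group and 7 lowest, beside 21.5% and 20.2% of all genes tested. All 10 epiblast markers were tested, and in ABSCs against AFSCs 3 rose, among them Pou5f1 (log2 fold change 0.19), and 6 fell, among them Fgf5 (-3.53), with 7.98% of all genes called. In ALSCs against AFSCs 2 rose and 3 fell, with 7.04% of all genes called. Their summed level was 4602 to 4655 CPM in AFSCs, 4401 to 4615 CPM in ALSCs and 4205 to 4314 CPM in ABSCs, and Pou5f1 was at 1073 ± 42.5 CPM in AFSCs, 933 ± 30.6 CPM in ALSCs and 1225 ± 42.4 CPM in ABSCs. Of the trophoblast stem cell markers, Elf5 and Gata3 had group means under 1 CPM, with at most 0.224 and 0.749 CPM, and Cdx2 stood at 4.44 ± 3.13 CPM in ABSCs. Of the 12 tested, 5 rose and 1 fell in ABSCs against AFSCs, with Hand1 at 0.240 ± 0.119 CPM in AFSCs and 213 ± 28.7 CPM in ABSCs and both Cdx2 and Hand1 among those that rose. The list's summed level was 391.1 to 452.8 CPM in AFSCs, 323.6 to 438.8 CPM in ALSCs and 647.1 to 771.3 CPM in ABSCs.

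Members with neighbouring start sites come first, because their sequence bears on how their counts are read. Col4a1 (chromosome 8, 11198423 to 11312826, minus strand) and Col4a2 (chromosome 8, 11312805 to 11449287, plus strand) lie head to head with start sites 21 bases apart, so their first exons share 22 bases. The 30 bases around both start sites at chr8:11312801-11312830 (GRCm38, plus strand, RefSeq) are shown with the shared 22 bases in capitals. They hold a GGGCGG, the GC box bound by Sp1-type factors.
Col4a1 and Col4a2 start sites: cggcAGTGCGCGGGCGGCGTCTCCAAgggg
Because the library kit does not mark strand, a read within these 22 bases could belong to either gene, but they make up only 0.29% of the exon bases of Col4a1 and 0.33% of those of Col4a2. Other such pairs exist among the collagen IV genes. Col4a5 (chromosome X, 141475385 to 141689234) and Col4a6 (chromosome X, 141165403 to 141474076) lie head to head with start sites 1309 bases apart, and Col4a3 and Col4a4 on chromosome 1 with start sites 72 bases apart.

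The stretches just before the start sites of 5 members called in at least 1 comparison below are shown next: the X-linked pair, Itgb5, Tgfbi and Col7a1. These genes are examples, and some of their calls were lost with 1 library left out. Capitals mark 3 short motifs searched on both strands. They are CCAAT (the CCAAT box), the GC box GGGCGG, and a palindrome spelled GGCGCC that can overlap the GC box. All lie upstream of the gene's start in the table (GRCm38, RefSeq windows), at chrX:141475169-141475384 (plus strand) for Col4a5, chrX:141474077-141474326 (minus) for Col4a6, chr16:33829415-33829664 (plus) for Itgb5, chr13:56609336-56609522 (plus) for Tgfbi and chr9:108953336-108953585 (plus) for Col7a1.
Col4a5: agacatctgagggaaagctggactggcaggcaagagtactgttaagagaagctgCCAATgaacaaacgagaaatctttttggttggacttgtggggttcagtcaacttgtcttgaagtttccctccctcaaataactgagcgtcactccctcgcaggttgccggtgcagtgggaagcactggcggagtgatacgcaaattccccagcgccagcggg
Col4a6: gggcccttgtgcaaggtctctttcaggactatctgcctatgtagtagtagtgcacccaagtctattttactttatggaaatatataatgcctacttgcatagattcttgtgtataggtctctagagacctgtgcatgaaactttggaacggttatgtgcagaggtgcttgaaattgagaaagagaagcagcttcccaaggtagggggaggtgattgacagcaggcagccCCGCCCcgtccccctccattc
Itgb5: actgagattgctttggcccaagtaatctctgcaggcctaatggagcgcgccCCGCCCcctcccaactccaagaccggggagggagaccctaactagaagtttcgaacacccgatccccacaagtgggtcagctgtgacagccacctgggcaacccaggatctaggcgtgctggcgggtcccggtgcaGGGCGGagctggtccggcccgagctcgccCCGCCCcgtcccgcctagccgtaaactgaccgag
Tgfbi: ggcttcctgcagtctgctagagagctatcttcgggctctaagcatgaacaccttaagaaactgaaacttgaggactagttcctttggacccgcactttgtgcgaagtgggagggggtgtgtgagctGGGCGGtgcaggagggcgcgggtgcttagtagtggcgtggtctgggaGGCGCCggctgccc
Col7a1: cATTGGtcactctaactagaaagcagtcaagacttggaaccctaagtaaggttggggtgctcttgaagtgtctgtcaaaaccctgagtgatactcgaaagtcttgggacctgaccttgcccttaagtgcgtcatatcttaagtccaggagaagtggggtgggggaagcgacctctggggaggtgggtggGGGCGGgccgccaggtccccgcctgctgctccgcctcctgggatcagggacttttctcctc
Itgb5 carried 3 GGGCGG in this stretch, the others at most 1, and the CCAAT of Col4a5 and of Col7a1 had no counterpart in the other 3. Of the 70 tested members, 48 had a RefSeq window (300 bases, from 250 before to 50 after the start, 53 windows in all). GGGCGG was in 67.9% of these windows and in 35.7% of the 32851 windows of all genes, CCAAT in 28.3% and 37.4%, and GGCGCC in 18.9% and 11.9%. The member windows are of genes that passed the filter on low counts, while the windows of all genes were not filtered. The shares are therefore not like for like, and no trait of these genes is read from them. These are matches of letters and were not tested.

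Expression per kilobase was concentrated in a few chains of each class. Itgb1, the common beta subunit, had the highest RPKM over the 9 libraries (mean 70.4), followed by the laminin alpha 5 chain Lama5 (55.3), Sparc, a collagen-binding glycoprotein (49.3), the laminin gamma 1 chain Lamc1 (46.4), Agrn (45.9) and Itgb5 (44.3). Nid2 stood at 36.6, Col18a1, the basement membrane collagen that gives rise to endostatin, at 26.6, the laminin beta 1 chain Lamb1 at 25.2, Hspg2 at 24.3 and Fn1 at 21.5 RPKM. Neighbours in this order were close: Lamc1 stood at 48.5 ± 1.80 in AFSCs, 47.1 ± 1.81 in ALSCs, 43.4 ± 2.64 in ABSCs RPKM and Agrn at 43.5 ± 3.95 in AFSCs, 45.8 ± 3.06 in ALSCs, 48.3 ± 1.41 in ABSCs RPKM.

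Other chains were far lower. The laminin alpha 1 chain Lama1 was at 0.532 RPKM, less than the 4.66 of Lamb2, and Nid1 at 1.51. Among fibrillar collagens, the trimers of tendon, bone and cartilage, the highest were Col5a1 (4.0), Col5a2 (3.29) and Col2a1 (1.63), with Col1a1 at 0.630, Col1a2 at 0.273 and Col3a1 at 0.0512 RPKM. Among network and other collagens Col18a1 was followed by Col4a1 (8.39) and Col4a2 (3.20). The leading integrin alpha subunits were Itga6 (19.2), Itga3 (12.3) and Itga5 (7.03), and the beta subunits after Itgb1 and Itgb5 were Itgb7 (2.12) and Itgb2 (1.75). Vtn, which encodes vitronectin, had 30 counts over all 9 libraries and was not tested.

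**Figure D1:**
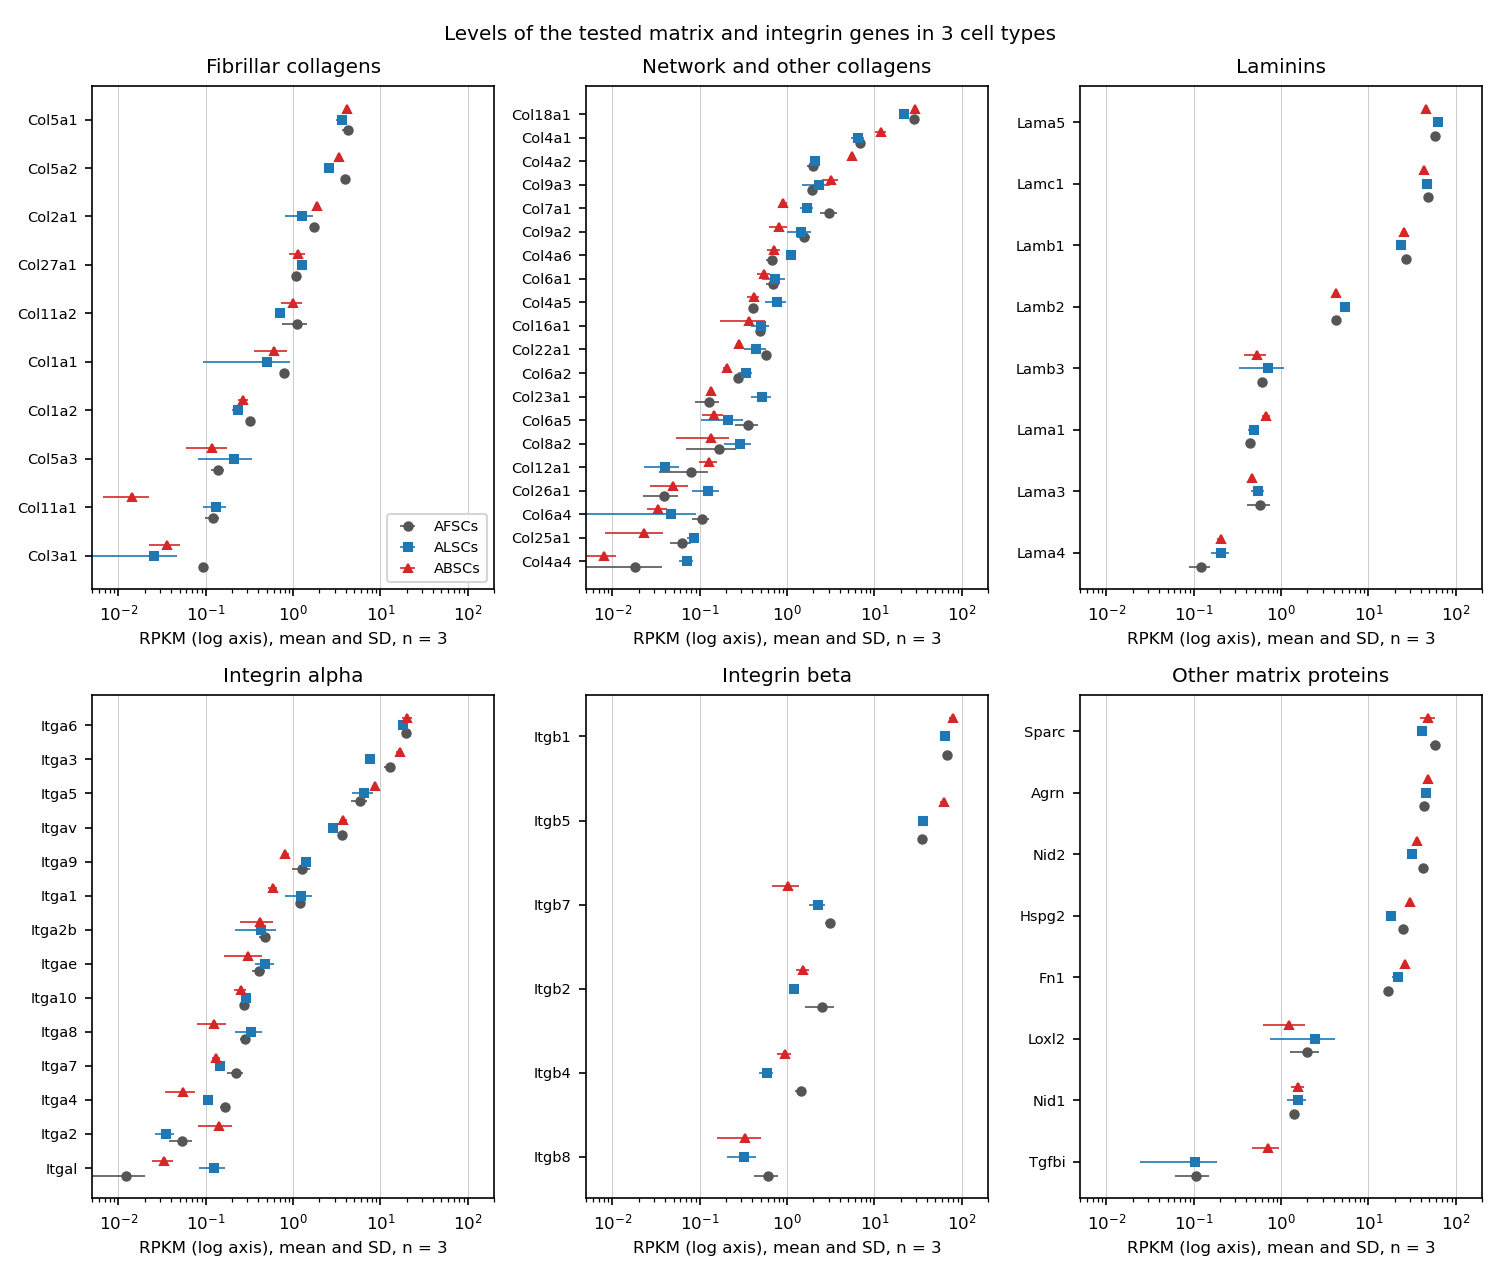
Level of tested members of the 6 classes as RPKM on a log axis, with 1 panel per class, a marker per cell type and lines for the SD of 3 libraries. Itgb1, Lama5, Sparc, Lamc1, Agrn and Itgb5 sit farthest right, between 44.3 and 70.4 RPKM over all libraries, while most collagen chains sit under 1 RPKM.

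The first comparison set ABSCs against AFSCs. Cells in Activin A and BMP4 had more RNA for both major collagen IV chains (Col4a2 2.82-fold and Col4a1 1.70-fold), for the integrin beta 5 subunit (Itgb5, 1.76-fold), for fibronectin (Fn1, 1.58-fold) and for Tgfbi, a secreted adhesion protein (6.50-fold). They had less for Col7a1, the anchoring-fibril collagen (log2 fold change -1.75), Itgb7 (-1.60), Itga4 (-1.59), Itga1 (-1.05), Col11a1 (-3.0), Col22a1 (-1.04) and Lama5 (-0.35). In all, 6 members rose and 7 fell, 18.6% of the 70 tested, and 7.98% of all genes tested were called in this comparison, as were 9.16% of protein-coding ones (3.98% of all higher and 4.0% lower). By class, 2 of 20 network and other collagens rose and 2 fell, 1 of 6 integrin beta subunits rose and 1 fell, 2 of 14 alpha subunits and 1 of 10 fibrillar collagens fell, and 2 of 8 other matrix proteins rose. The median log2 fold change of the 70 was -0.157, and that of all genes -0.004. In 14 members the ABSCs libraries were all above and in 19 all below the AFSCs libraries (13.9% and 13.5% of all genes).

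All 13 calls went one way in each of the 3 same-number pairs of libraries. These calls were made from the same libraries, so the agreement was close to fixed in advance and adds no support. With the library number as a block, 13 members rose and 21 fell (19.4% of all genes called), these 13 calls among them. Leaving out 1 library gave 4 members that fell without AFSCs 2, AFSCs 3, ABSCs 2 or ABSCs 3. Without ALSCs 1, 10 rose and 12 fell. Over all genes, these fits called 686, 667, 685, 746 and 1723 in turn, beside 1291 with no library left out. Leaving out 1 library also took calls away, given here with their edgeR adjusted p. Tgfbi was lost without AFSCs 1, 2 or 3 or ABSCs 2 or 3 (0.0613 to 0.0683). Lama5 was lost without AFSCs 2 or 3 or ABSCs 1, 2 or 3 (0.0616 to 0.15). Itga1 was lost without AFSCs 1, 2 or 3 or ABSCs 2 or 3 (0.0513 to 0.0865). Col22a1 was lost without AFSCs 1, 2 or 3 or ABSCs 2 or 3 (0.0539 to 0.0746).

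The second comparison set ALSCs against the same AFSCs libraries. Cells in Activin A and leukaemia inhibitory factor had more Fn1 (1.30-fold), more of the X-linked collagen IV pair Col4a5 (1.89-fold) and Col4a6 (1.68-fold), and more Col23a1, a membrane-spanning collagen (4.05-fold). They had less Hspg2 (log2 fold change -0.46), Col18a1 (-0.38), Nid2 (-0.41), Col5a2 (-0.64), Itga3 (-0.74), Col7a1 (-0.84), Itgb4 (-1.29) and Itgb2 (-1.08). Itgal, the alpha subunit of a leukocyte integrin, also rose, from 0.0798 ± 0.0528 to 0.819 ± 0.271 CPM (3.25), and is named here after its value was seen because it stayed under 1 CPM. Its AFSCs libraries were at or under the limit that a count of 0 leaves possible, so the size of the rise is uncertain. In all 5 rose and 8 fell (18.6% of 70), with 7.04% of all genes and 8.15% of protein-coding genes called (3.54% of all higher and 3.50% lower). For the 9 laminin chains, the log2 fold changes ran from -0.24 to 0.78. The median over the 70 was -0.011, and over all genes 0.003.

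With the block, 10 members rose and 16 fell (22.2% of all genes called), the 13 above among them. Leaving out 1 library gave 2 or 3 members that rose without any AFSCs library, any ALSCs library or ABSCs 2. It gave 4 or 5 that fell without AFSCs 2, AFSCs 3 or ALSCs 3. Over all genes, these fits called 345 to 1012, beside 1139 with no library left out. Calls lost are given with their edgeR adjusted p. Fn1 was lost without AFSCs 1, 2 or 3 or ALSCs 2 (0.0546 to 0.098). Col4a5 was lost without AFSCs 1, 2 or 3 or ALSCs 1, 2 or 3 or ABSCs 2 or 3 (0.0524 to 0.142). Col4a6 was lost without AFSCs 2 or 3 or ALSCs 1, 2 or 3 or ABSCs 2 (0.0532 to 0.144). Col18a1 was lost without AFSCs 2 or 3 or ALSCs 1 or 3 (0.0617 to 0.131). Nid2 was lost without AFSCs 2 or 3 or ALSCs 3 (0.0651 to 0.0858). Col7a1 was lost without AFSCs 2 or 3 or ALSCs 2 (0.061 to 0.0919). Itgb2 was lost without AFSCs 2 or 3 or ALSCs 1, 2 or 3 or ABSCs 2 or 3 (0.061 to 0.176).

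The last comparison set ABSCs against ALSCs. Between the cultures in BMP4 and in leukaemia inhibitory factor more members differed than against AFSCs: 13 rose and 15 fell, 40.0% of 70, with 11.0% of all genes and 12.5% of protein-coding genes called (5.41% of all higher and 5.56% lower). Among those higher in ABSCs were Col4a2 (2.67-fold), Col4a1 (1.80-fold), Itga3 (2.19-fold), Itgb5 (1.73-fold), Hspg2 (1.63-fold), Col18a1, Col5a2, Itgav, Itgb1 and, at low levels, Tgfbi, Itga2 and Col12a1. Lower were Lama5 (log2 fold change -0.45), Lamb2 (-0.35), Col7a1 (-0.90), Col4a5 (-0.89), Col4a6 (-0.64), Col11a1 (-3.13), Col23a1 (-1.93), Col25a1 (-1.84), Itga1 (-1.07), Itga8 (-1.40), Itga9 (-0.78), Itgb7 (-1.14), Itgb3bp (-0.43) and, both under 1 CPM and named after their values were seen, Itgal (-1.88) and Col4a4 (-3.07). By class, 4 of 20 network and other collagens rose and 6 fell, 3 of 14 integrin alpha subunits rose and 4 fell, and 2 of 6 beta subunits rose and 1 fell. The 70 had a median log2 fold change of -0.082, and all genes one of -0.011. The library ranges were apart upward in 20 members and downward in 20 (13.9% and 15.1% of all genes).

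With the block, 20 members rose and 21 fell (28.5% of all genes called), the 28 above among them. Without ABSCs 2, 7 rose and 4 fell, without ABSCs 3 8 and 6, without ALSCs 2 8 and 7, and without ALSCs 1 7 fell. Over all genes, these fits called 846, 958, 1225 and 1512 in turn, beside 1775 with no library left out. The calls that a single library could take away follow with their edgeR adjusted p. Col18a1 and Col7a1 were lost without ABSCs 2 (0.0584 and 0.0609). Tgfbi was lost without ABSCs 2 or 3 (0.0533 to 0.054). Itgb7 was lost without ABSCs 2 or 3 (0.0697 to 0.0797). Itga8 was lost without ALSCs 1 or ABSCs 2 (0.0733 to 0.104). Itgb1 was lost without ALSCs 2 or ABSCs 2 or 3 (0.0577 to 0.0936). Itga1 was lost without ALSCs 2 or 3 or ABSCs 2 (0.0613 to 0.0688). Col5a2 was lost without ALSCs 2 or 3 or ABSCs 2 or 3 (0.0618 to 0.0896). Itga9 was lost without ALSCs 1 or 2 or ABSCs 2 or 3 (0.0531 to 0.0987). Itga2 was lost without ALSCs 1, 2 or 3 or ABSCs 2 or 3 (0.0503 to 0.0924). Col25a1 was lost without ALSCs 1, 2 or 3 or ABSCs 2 or 3 (0.0542 to 0.0926). Col12a1 was lost without AFSCs 3 or ALSCs 2 or 3 or ABSCs 2 or 3 (0.0775 to 0.156). Col4a5 was lost without AFSCs 2 or 3 or ALSCs 1 or 2 or ABSCs 2 or 3 (0.0547 to 0.142). Lamb2 was lost without AFSCs 1, 2 or 3 or ALSCs 1 or 2 or ABSCs 2 or 3 (0.0529 to 0.157). Itgb3bp was lost without AFSCs 2 or 3 or ALSCs 1, 2 or 3 or ABSCs 2 or 3 (0.0624 to 0.148). Itgav was lost without AFSCs 1, 2 or 3 or ALSCs 2 or 3 or ABSCs 1, 2 or 3 (0.0525 to 0.12). Col4a6 was lost without AFSCs 1, 2 or 3 or ALSCs 1, 2 or 3 or ABSCs 1, 2 or 3 (0.0501 to 0.111).

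**Figure D2:**
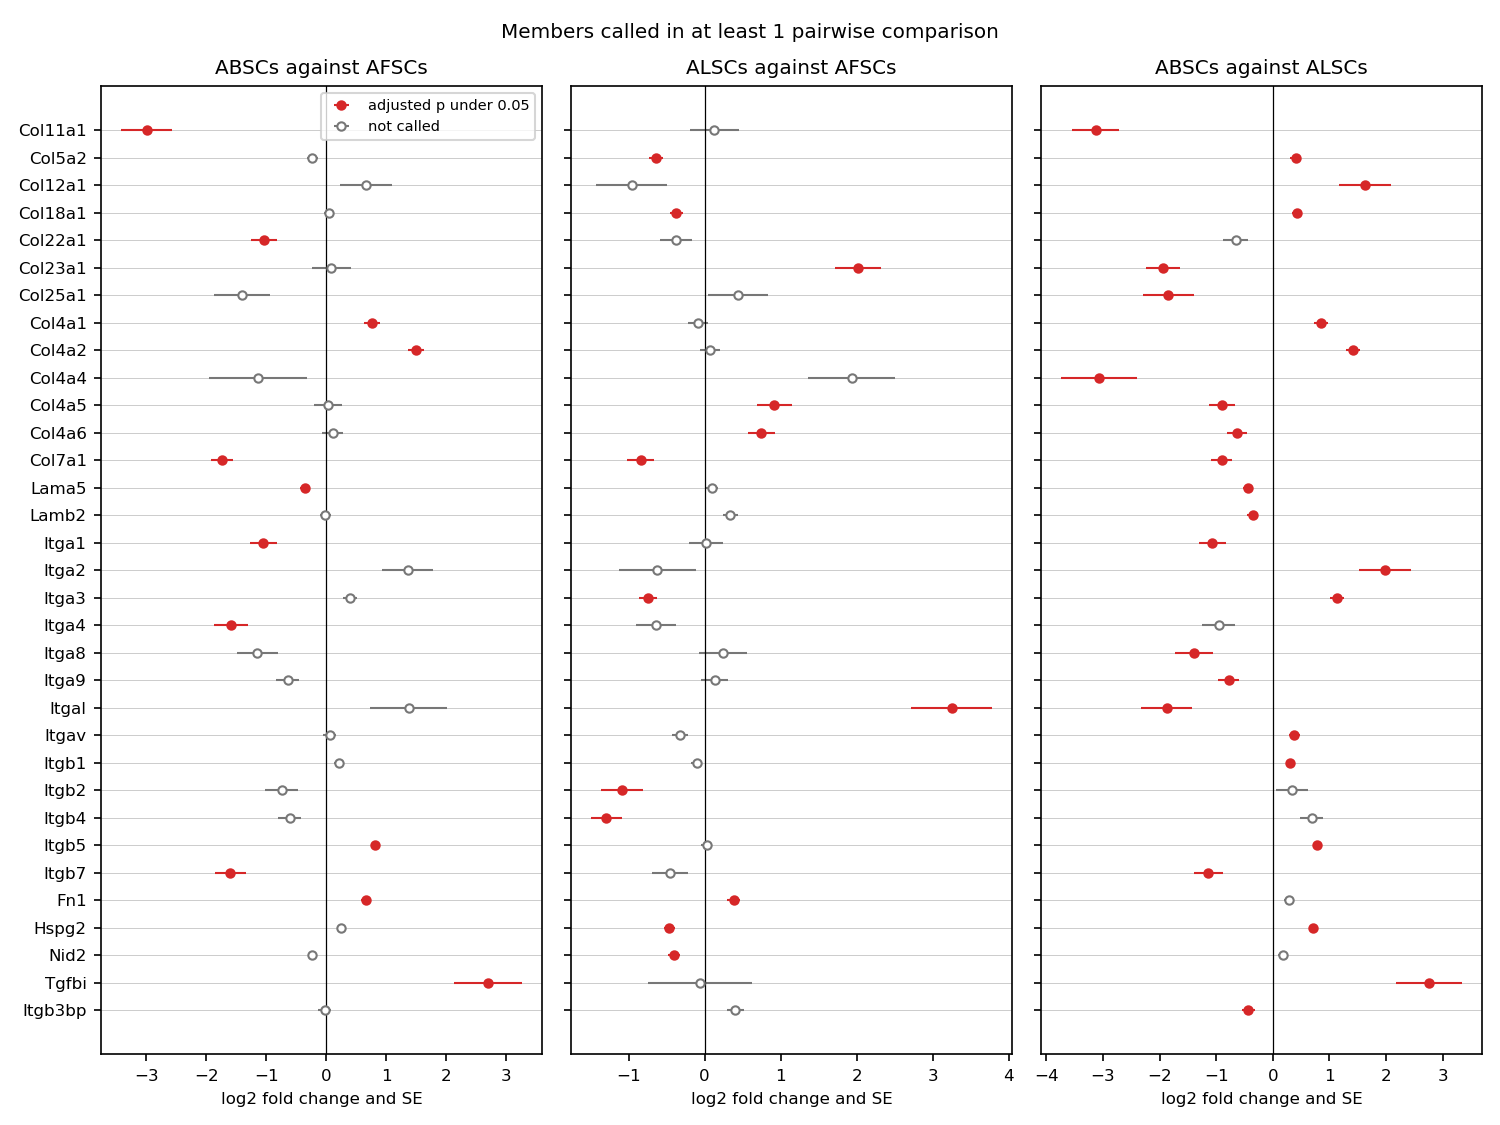
Log2 fold change (points) and SE (lines) of members called in at least 1 of the pairwise comparisons, 1 panel per comparison, filled where the edgeR adjusted p was under 0.05. Col4a1, Col4a2 and Itgb5 are filled to the right in both panels with ABSCs and stand near 0 for ALSCs against AFSCs, and Col7a1 is filled to the left in all 3.

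Tested for differences of any kind across the cell types, 32 of the 70 members passed (45.7%), while 14.8% of all genes and 17.0% of protein-coding genes were called. They included 5 of 6 integrin beta subunits, 7 of 14 alpha subunits, 10 of 20 network and other collagens, 4 of 8 other matrix proteins, 2 of 10 fibrillar collagens and Itgb3bp. Itgav (edgeR adjusted p = 0.0591) and Col12a1 (edgeR adjusted p = 0.0865) did not pass, though both were called in ABSCs against ALSCs. The 3 pairwise comparisons share libraries, so a gene called in 2 of them is not counted as 2 findings. Without AFSCs 2 the count was 20, without AFSCs 3 18, without ALSCs 3 21, without ABSCs 2 18 and without ABSCs 3 20. Over all genes, these fits called 1433, 1431, 1696, 1395 and 1527 in turn, beside 2395 with no library left out. With the block the count of members was 50 (37.0% of all genes).

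The alpha 1 and alpha 2 chains of collagen IV, which form the common trimer, were higher in every ABSCs library than in any other. Col4a1 was at 47.8, 53.6 and 53.4 CPM in AFSCs, 58.0, 43.9 and 44.1 CPM in ALSCs and 102, 81.4 and 79.8 CPM in ABSCs. Col4a1 in ABSCs had a log2 fold change of 0.77 (SE 0.13, edgeR adjusted p = 0.00535) against AFSCs and of 0.85 (SE 0.13, edgeR adjusted p = 0.0027) against ALSCs. Col4a2 was at 10.9, 14.1 and 14.2 CPM in AFSCs, 14.6, 14.2 and 12.4 CPM in ALSCs and 39.4, 37.0 and 33.9 CPM in ABSCs. Col4a2 in ABSCs against AFSCs had a log2 fold change of 1.49 (SE 0.13, edgeR adjusted p = 0.00011). AFSCs and ALSCs overlapped for both genes, with edgeR adjusted p of 0.776 and 0.802. Without the libraries numbered 1, Col4a1 was lower in ALSCs than in AFSCs (log2 fold change -0.29, edgeR adjusted p = 0.000684). That fit called 4122 of all genes in this comparison, beside 1139 with all libraries. Per kilobase, Col4a1 exceeded Col4a2 in every cell type, at 6.91 ± 0.445 in AFSCs, 6.52 ± 1.09 in ALSCs, 11.8 ± 1.66 in ABSCs RPKM beside 1.97 ± 0.286 in AFSCs, 2.08 ± 0.183 in ALSCs, 5.56 ± 0.419 in ABSCs RPKM. The head-to-head partners therefore moved in 1 direction but by unequal amounts.

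The X-linked alpha 5 and alpha 6 chains, found in special basement membranes, were highest in ALSCs. Col4a5 was at 2.57, 2.74 and 2.86 CPM in AFSCs, 6.75, 4.48 and 4.22 CPM in ALSCs and 3.04, 2.25 and 3.03 CPM in ABSCs, with all ALSCs libraries above the rest. Col4a5 in ALSCs against AFSCs had a log2 fold change of 0.92 (SE 0.23, edgeR adjusted p = 0.04). Col4a6 was at 6.02, 4.77 and 5.07 CPM in AFSCs, 9.91, 8.13 and 8.55 CPM in ALSCs and 4.61, 6.11 and 6.37 CPM in ABSCs, again with ALSCs on top. Col4a6 in ALSCs against AFSCs had a log2 fold change of 0.75 (SE 0.18, edgeR adjusted p = 0.0317). ABSCs and AFSCs overlapped for both, with log2 fold changes of 0.03 and 0.11. Of the remaining pair, Col4a3 had 9 counts in all and Col4a4 reached 0.752 ± 0.143 CPM in ALSCs, above AFSCs with the block (log2 fold change 1.99, SE 0.56, edgeR adjusted p = 0.0191). Every ABSCs library of Col4a4 was under the limit that a count of 0 leaves possible, as were AFSCs 1 and AFSCs 3. The sizes of the differences of ABSCs and of AFSCs from ALSCs are therefore uncertain for this gene.

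The abundant laminin chains Lama5, Lamb1 and Lamc1, which can assemble into a single trimer, differed by small amounts. Lama5, the most abundant member by CPM, was at 608, 709 and 666 CPM in AFSCs, 621, 771 and 731 CPM in ALSCs and 504, 529 and 526 CPM in ABSCs, and its 3 ABSCs libraries lay under all others. Lama5 in ABSCs had a log2 fold change of -0.35 (SE 0.08, edgeR adjusted p = 0.0303) against AFSCs and of -0.45 (SE 0.08, edgeR adjusted p = 0.00782) against ALSCs. Lamb1 was at 265 ± 13.1 CPM in AFSCs, 233 ± 4.94 CPM in ALSCs and 252 ± 17.1 CPM in ABSCs, and Lamc1 at 401 ± 14.9 CPM in AFSCs, 389.8 ± 15.0 CPM in ALSCs and 359 ± 21.8 CPM in ABSCs. Neither passed the test in any comparison, but with the block Lamc1 fell in ABSCs against AFSCs (log2 fold change -0.16, SE 0.05, edgeR adjusted p = 0.0211) and Lamb1 fell in ALSCs against AFSCs (log2 fold change -0.18, SE 0.05, edgeR adjusted p = 0.0217).

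The laminin alpha 3 chain Lama3 and beta 3 chain Lamb3 were at 6.19 ± 1.86 CPM in AFSCs, 5.91 ± 1.02 CPM in ALSCs and 4.99 ± 0.151 CPM in ABSCs, and at 4.02 ± 0.0525 CPM in AFSCs, 4.66 ± 2.46 CPM in ALSCs and 3.47 ± 1.02 CPM in ABSCs, with no call. Lamb2 was at 27.4, 26.3 and 24.6 CPM in AFSCs, 34.5, 35.0 and 29.6 CPM in ALSCs and 27.2, 24.9 and 25.5 CPM in ABSCs, with the 3 ALSCs libraries highest, and against AFSCs its rise in ALSCs passed only with the block (log2 fold change 0.34, SE 0.08, edgeR adjusted p = 0.00617). Lamb2 in ABSCs against ALSCs had a log2 fold change of -0.35 (SE 0.09, edgeR adjusted p = 0.0402). Lama1, the alpha chain of embryonic basement membranes, was at 4.26 ± 0.457 CPM in AFSCs, 4.70 ± 0.683 CPM in ALSCs and 6.49 ± 0.704 CPM in ABSCs. Its difference between ABSCs and AFSCs missed the threshold (edgeR adjusted p = 0.0699) and passed it with the block (log2 fold change 0.60, SE 0.17, edgeR adjusted p = 0.0228).

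Among the linkers and proteoglycans, Hspg2, which encodes perlecan, was at 353, 375 and 349 CPM in AFSCs, 275, 271 and 235 CPM in ALSCs and 414, 442 and 418 CPM in ABSCs, so that the 3 cell types did not overlap, with ALSCs lowest and ABSCs highest. It fell in ALSCs against AFSCs (log2 fold change -0.46, SE 0.07, edgeR adjusted p = 0.00399) and was higher in ABSCs than in ALSCs (0.71, edgeR adjusted p = 0.000185). The difference between ABSCs and AFSCs missed the threshold (edgeR adjusted p = 0.0587) and passed it with the block (log2 fold change 0.24, SE 0.05, edgeR adjusted p = 0.00327). Nid2, the more abundant nidogen, was at 194, 240.4 and 220.1 CPM in AFSCs, 159, 174 and 160.4 CPM in ALSCs and 184, 197 and 177 CPM in ABSCs, with every ALSCs library under every AFSCs library. Nid2 in ALSCs against AFSCs had a log2 fold change of -0.41 (SE 0.08, edgeR adjusted p = 0.0181). Its exons share 8.45% of their bases with Rtraf on the other strand, so part of its counts cannot be assigned. With the block, Nid2 also fell in ABSCs against AFSCs (log2 fold change -0.23, SE 0.05, edgeR adjusted p = 0.00687) and was higher in ABSCs than in ALSCs (log2 fold change 0.18, SE 0.05, edgeR adjusted p = 0.0244).

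Agrn was at 404 ± 36.6 CPM in AFSCs, 425 ± 28.4 CPM in ALSCs and 448 ± 13.1 CPM in ABSCs and Nid1 at 9.68 ± 0.744 CPM in AFSCs, 10.8 ± 2.68 CPM in ALSCs and 10.9 ± 1.87 CPM in ABSCs, and neither was called in any comparison, with or without the block. Col18a1, which carries heparan sulfate chains like perlecan, followed the order of Hspg2 in ALSCs and AFSCs. It was at 182, 215 and 202 CPM in AFSCs, 141, 171 and 149.5 CPM in ALSCs and 199, 216 and 203 CPM in ABSCs, and all ALSCs libraries were lowest, while ABSCs and AFSCs overlapped. Col18a1 had a log2 fold change of -0.38 (SE 0.09, edgeR adjusted p = 0.0283) in ALSCs against AFSCs and 0.42 (SE 0.09, edgeR adjusted p = 0.0122) in ABSCs against ALSCs.

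Fn1, which encodes fibronectin, a ligand of several integrins, was at 188, 196 and 196 CPM in AFSCs, 288, 241 and 227 CPM in ALSCs and 326, 298 and 295 CPM in ABSCs, and the groups did not overlap: AFSCs were lowest, ALSCs between and ABSCs highest. It rose in ABSCs (log2 fold change 0.66, SE 0.09, edgeR adjusted p = 0.0012) and in ALSCs (log2 fold change 0.38, SE 0.09, edgeR adjusted p = 0.0259) against the shared AFSCs. The difference between ABSCs and ALSCs missed the threshold (log2 fold change 0.28, edgeR adjusted p = 0.0618) and passed it with the block (log2 fold change 0.28, SE 0.06, edgeR adjusted p = 0.00427). Within each of ALSCs and ABSCs, library 1 was highest. Tgfbi was a low-level gene, at 0.206, 0.472 and 0.516 CPM in AFSCs, 0.0459, 0.574 and 0.560 CPM in ALSCs and 1.62, 3.03 and 3.28 CPM in ABSCs, with ABSCs above the rest. Tgfbi in ABSCs against AFSCs had a log2 fold change of 2.70 (SE 0.57, edgeR adjusted p = 0.017). Its library 1 was lowest in each group, and ALSCs 1 was under the limit that a count of 0 leaves possible.

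Sparc was at 189, 243 and 234 CPM in AFSCs, 156, 161 and 148 CPM in ALSCs and 141, 210.5 and 198 CPM in ABSCs. All 3 ALSCs libraries lay under the AFSCs libraries, but the difference missed the threshold (log2 fold change -0.52, SE 0.14, edgeR adjusted p = 0.0556) and passed it with the block (log2 fold change -0.51, SE 0.09, edgeR adjusted p = 0.00432). Loxl2, an enzyme that crosslinks collagen IV, varied more by library number than by cell type: it was at 15.4, 8.07 and 8.92 CPM in AFSCs, 23.7, 7.98 and 7.79 CPM in ALSCs and 10.5, 4.96 and 4.55 CPM in ABSCs, highest in library 1 of every group. It was not called in any comparison without the block, and with it Loxl2 fell in ABSCs against AFSCs (log2 fold change -0.74, SE 0.15, edgeR adjusted p = 0.00322) and against ALSCs (log2 fold change -0.91, SE 0.15, edgeR adjusted p = 0.000457).

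Among the other collagens, Col7a1 was the only member called in all 3 comparisons without the block, and none of its groups overlapped. It was at 24.7, 38.1 and 30.9 CPM in AFSCs, 14.1, 17.9 and 20.3 CPM in ALSCs and 9.81, 8.30 and 9.80 CPM in ABSCs. Col7a1 had a log2 fold change of -1.75 (SE 0.18, edgeR adjusted p = 0.000355) in ABSCs against AFSCs, -0.84 (SE 0.18, edgeR adjusted p = 0.0199) in ALSCs against AFSCs and -0.90 (SE 0.18, edgeR adjusted p = 0.0117) in ABSCs against ALSCs. Of the fibrillar chains, Col5a2 was at 33.7, 40.3 and 40.0 CPM in AFSCs, 24.7, 24.0 and 24.4 CPM in ALSCs and 30.5, 33.6 and 32.6 CPM in ABSCs, lowest in ALSCs. Col5a2 in ALSCs against AFSCs had a log2 fold change of -0.64 (SE 0.09, edgeR adjusted p = 0.0037). Its partner chain Col5a1 was at 35.7 ± 4.88 CPM in AFSCs, 30.7 ± 4.33 CPM in ALSCs and 35.4 ± 2.17 CPM in ABSCs, with no call in any comparison. With the block Col5a2 also fell in ABSCs against AFSCs (log2 fold change -0.24, SE 0.08, edgeR adjusted p = 0.0437). Col11a1, a chain of cartilage fibrils, was at 1.75, 1.60 and 1.22 CPM in AFSCs, 2.20, 1.25 and 1.53 CPM in ALSCs and 0.294, 0.157 and 0.101 CPM in ABSCs, and the ABSCs libraries were lowest. Col11a1 in ABSCs against AFSCs had a log2 fold change of -3.0 (SE 0.42, edgeR adjusted p = 0.00191). Its level in ABSCs 2 and 3 was at or under the limit that a count of 0 leaves possible, so the size is uncertain. Col1a1, Col1a2, Col2a1 and Col3a1, the main chains of fibrous tissue and cartilage, were not called in any comparison without the block. With it Col3a1, with group means under 1 CPM, fell in ALSCs (log2 fold change -1.90, SE 0.49, edgeR adjusted p = 0.0122) and in ABSCs (log2 fold change -1.37, SE 0.46, edgeR adjusted p = 0.0495) against AFSCs. Col2a1 was at 16.1 ± 1.27 CPM in AFSCs, 11.5 ± 4.08 CPM in ALSCs and 17.5 ± 1.10 CPM in ABSCs, and with the block was higher in ABSCs than in ALSCs (log2 fold change 0.61, SE 0.17, edgeR adjusted p = 0.0176). Col1a1 was at 5.18 ± 0.261 CPM in AFSCs, 3.30 ± 2.69 CPM in ALSCs and 3.93 ± 1.59 CPM in ABSCs, with a spread in ALSCs nearly as large as its mean.

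Among membrane-spanning and fibril-associated chains, Col23a1 was at 0.978, 0.519 and 0.704 CPM in AFSCs, 3.85, 2.61 and 2.44 CPM in ALSCs and 0.834, 0.731 and 0.758 CPM in ABSCs, so that ALSCs stood above both other types. Col23a1 had a log2 fold change of 2.02 (SE 0.30, edgeR adjusted p = 0.00428) in ALSCs against AFSCs and -1.93 (SE 0.30, edgeR adjusted p = 0.00294) in ABSCs against ALSCs. Col22a1, a chain of tissue junctions, was at 5.34 ± 0.324 CPM in AFSCs, 4.09 ± 1.17 CPM in ALSCs and 2.60 ± 0.192 CPM in ABSCs and fell in ABSCs against AFSCs. Col22a1 in ABSCs against AFSCs had a log2 fold change of -1.04 (SE 0.22, edgeR adjusted p = 0.0166). Col25a1, also membrane-spanning, was at 0.810 ± 0.221 CPM in AFSCs, 1.10 ± 0.175 CPM in ALSCs and 0.299 ± 0.193 CPM in ABSCs and was lower in ABSCs than in ALSCs. Col25a1 in ABSCs against ALSCs had a log2 fold change of -1.84 (SE 0.45, edgeR adjusted p = 0.0284). With the block it fell against AFSCs as well (log2 fold change -1.43, SE 0.46, edgeR adjusted p = 0.0393), and Col22a1 was lower in ABSCs than in ALSCs (log2 fold change -0.64, SE 0.19, edgeR adjusted p = 0.0225). Col12a1, which sits on the surface of fibrils, was at 1.21 ± 0.688 CPM in AFSCs, 0.615 ± 0.267 CPM in ALSCs and 1.93 ± 0.454 CPM in ABSCs and was higher in ABSCs than in ALSCs. Col12a1 in ABSCs against ALSCs had a log2 fold change of 1.63 (SE 0.46, edgeR adjusted p = 0.0494). The collagen IX chain Col9a3, at 7.43 ± 0.653 CPM in AFSCs, 8.86 ± 3.10 CPM in ALSCs and 12.2 ± 2.57 CPM in ABSCs, was not called without the block, and its exons share 6.07% of their bases with Tcfl5. With the block it was higher in ABSCs than in AFSCs (log2 fold change 0.70, SE 0.14, edgeR adjusted p = 0.00221) and in ALSCs (log2 fold change 0.48, SE 0.14, edgeR adjusted p = 0.0173).

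**Figure D3:**
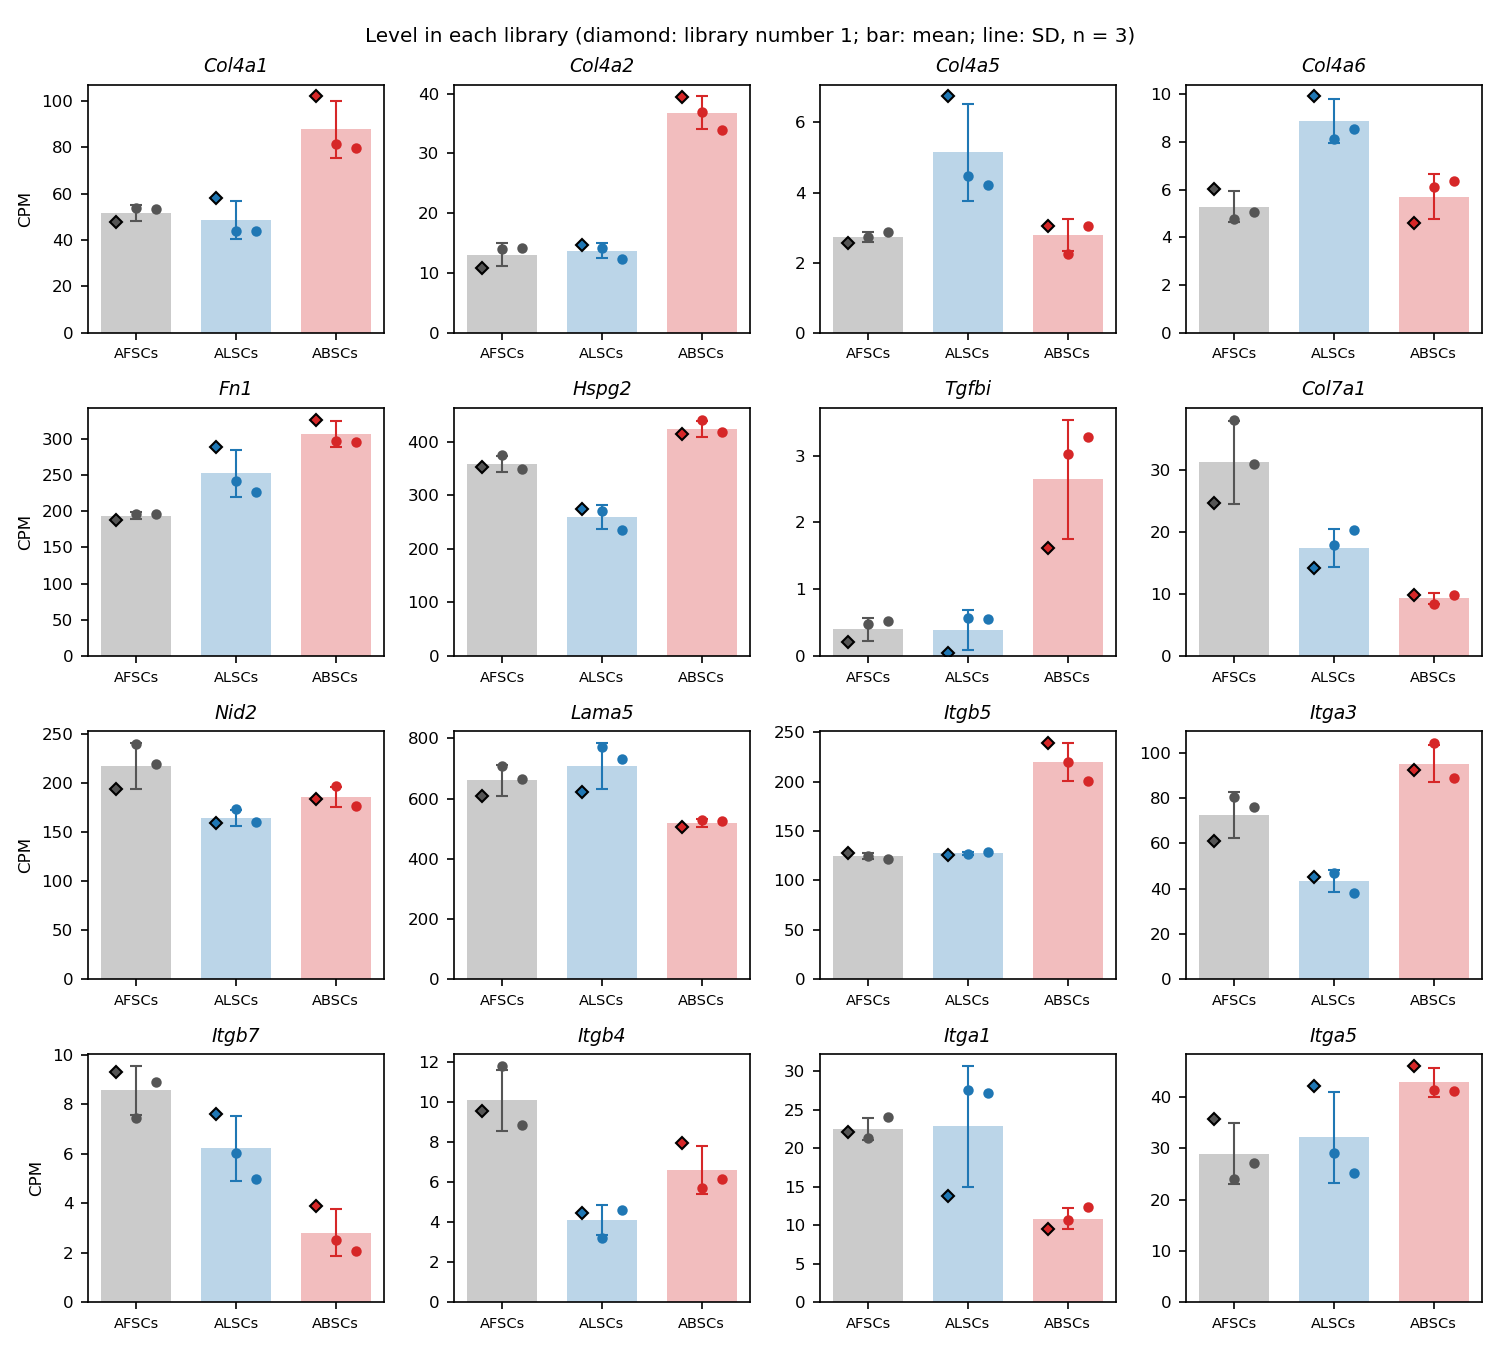
CPM of 16 members in each library, with bars for the group mean, lines for the SD of 3 libraries and a diamond for library number 1. ABSCs stand alone at the top for Col4a1, Col4a2, Tgfbi and Itgb5, ALSCs at the top for Col4a5 and Col4a6 and at the bottom for Hspg2 and Itga3, and Col7a1 steps down from AFSCs to ALSCs to ABSCs.

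Of the integrin beta subunits, Itgb5 (chromosome 16, 33829665 to 33949338), whose upstream stretch held 3 GGGCGG and which pairs with Itgav, had the smallest adjusted p of all members. It was at 128, 125 and 122 CPM in AFSCs, 126, 127 and 129 CPM in ALSCs and 239.5, 220.0 and 200.4 CPM in ABSCs: AFSCs and ALSCs spanned a narrow band and every ABSCs library lay well above it. Itgb5 in ABSCs had a log2 fold change of 0.81 (SE 0.07, edgeR adjusted p = 9.13e-05) against AFSCs and of 0.79 (SE 0.07, edgeR adjusted p = 8.78e-05) against ALSCs. Itgb1 was at 278, 287 and 273 CPM in AFSCs, 252, 261 and 267 CPM in ALSCs and 286, 346 and 334 CPM in ABSCs, higher in ABSCs than in ALSCs, with ABSCs 1 close to AFSCs. Itgb1 in ABSCs against ALSCs had a log2 fold change of 0.31 (SE 0.07, edgeR adjusted p = 0.0211). Against AFSCs it passed only with the block (log2 fold change 0.20, SE 0.05, edgeR adjusted p = 0.0158).

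Of the less abundant beta subunits, 3 were called lower in ABSCs or ALSCs than in AFSCs. Itgb7, a leukocyte subunit that pairs with Itga4, was at 9.32, 7.46 and 8.92 CPM in AFSCs, 7.62, 6.05 and 4.99 CPM in ALSCs and 3.88, 2.51 and 2.07 CPM in ABSCs, with ABSCs lowest. Itgb7 in ABSCs against AFSCs had a log2 fold change of -1.60 (SE 0.25, edgeR adjusted p = 0.00362). Its partner Itga4 fell as well, from 2.31 ± 0.257 CPM in AFSCs and 1.48 ± 0.117 CPM in ALSCs to 0.764 ± 0.292 CPM in ABSCs (log2 fold change -1.59, SE 0.29, edgeR adjusted p = 0.00741 against AFSCs). Itgb4, the hemidesmosome subunit that pairs with Itga6, was at 9.57, 11.8 and 8.87 CPM in AFSCs, 4.45, 3.23 and 4.63 CPM in ALSCs and 7.95, 5.69 and 6.17 CPM in ABSCs, with ALSCs lowest. Itgb4 in ALSCs against AFSCs had a log2 fold change of -1.29 (SE 0.20, edgeR adjusted p = 0.00553). Its values in ABSCs lay between, and with the block they differed from AFSCs (log2 fold change -0.62, SE 0.17, edgeR adjusted p = 0.0183) and from ALSCs (log2 fold change 0.68, SE 0.19, edgeR adjusted p = 0.013). Itgb2, the common leukocyte subunit, was at 4.48, 9.48 and 9.29 CPM in AFSCs, 3.85, 3.81 and 3.31 CPM in ALSCs and 3.88, 5.43 and 4.60 CPM in ABSCs, and AFSCs 1 was close to the other cell types while AFSCs 2 and 3 were higher. Itgb2 in ALSCs against AFSCs had a log2 fold change of -1.08 (SE 0.28, edgeR adjusted p = 0.0433). Itgb8 was at 6.69 ± 2.02 CPM in AFSCs, 3.57 ± 1.28 CPM in ALSCs and 3.64 ± 1.92 CPM in ABSCs, was lowest in library 1 of each group, and was not called without the block. With it Itgb8 fell in ABSCs (log2 fold change -0.94, SE 0.19, edgeR adjusted p = 0.00269) and in ALSCs (log2 fold change -0.92, SE 0.19, edgeR adjusted p = 0.00313) against AFSCs. The block also added calls for Itgb2 in ABSCs against AFSCs (log2 fold change -0.72, SE 0.20, edgeR adjusted p = 0.0218), Itgb7 in ALSCs against AFSCs (log2 fold change -0.48, SE 0.16, edgeR adjusted p = 0.0466) and Itga4 in ABSCs against ALSCs (log2 fold change -0.96, SE 0.31, edgeR adjusted p = 0.0327).

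Of the integrin alpha subunits, Itga6, the most abundant, was at 175 ± 11.9 CPM in AFSCs, 163 ± 11.4 CPM in ALSCs and 183 ± 22.3 CPM in ABSCs and was not called, though with the block it was higher in ABSCs than in ALSCs (log2 fold change 0.16, SE 0.05, edgeR adjusted p = 0.0339). Itga3, the other laminin-binding subunit, separated the cell types. It was at 61.0, 80.5 and 76.2 CPM in AFSCs, 45.3, 46.8 and 38.0 CPM in ALSCs and 92.3, 105 and 89.0 CPM in ABSCs, with ALSCs lowest and ABSCs highest and no overlap. Itga3 had a log2 fold change of -0.74 (SE 0.12, edgeR adjusted p = 0.00611) in ALSCs against AFSCs and 1.13 (SE 0.12, edgeR adjusted p = 0.000313) in ABSCs against ALSCs. Between ABSCs and AFSCs it missed the threshold (edgeR adjusted p = 0.0748) and passed it with the block (log2 fold change 0.39, SE 0.08, edgeR adjusted p = 0.00439). The order of groups is that of Hspg2.

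Of the collagen-binding subunits, Itga1 was at 22.1, 21.3 and 24.0 CPM in AFSCs, 13.8, 27.5 and 27.2 CPM in ALSCs and 9.57, 10.7 and 12.3 CPM in ABSCs, lowest in ABSCs, with ALSCs 1 far under the other ALSCs libraries. Itga1 in ABSCs had a log2 fold change of -1.05 (SE 0.23, edgeR adjusted p = 0.0217) against AFSCs and of -1.07 (SE 0.23, edgeR adjusted p = 0.0169) against ALSCs. Its neighbour Itga2, the other collagen receptor, was scarce, at 0.384 ± 0.112 CPM in AFSCs, 0.250 ± 0.0616 CPM in ALSCs and 1.00 ± 0.420 CPM in ABSCs, and was higher in ABSCs than in ALSCs. Itga2 in ABSCs against ALSCs had a log2 fold change of 1.98 (SE 0.45, edgeR adjusted p = 0.0208). Itgav, the partner of Itgb5, was at 38.9 ± 1.96 CPM in AFSCs, 31.0 ± 3.50 CPM in ALSCs and 40.4 ± 3.69 CPM in ABSCs, and was higher in ABSCs than in ALSCs, while ABSCs and AFSCs overlapped. Itgav in ABSCs against ALSCs had a log2 fold change of 0.38 (SE 0.10, edgeR adjusted p = 0.0433). Itga5, the fibronectin receptor subunit, was at 35.7, 24.1 and 27.2 CPM in AFSCs, 42.1, 29.1 and 25.2 CPM in ALSCs and 46.0, 41.4 and 41.1 CPM in ABSCs, highest in library 1 of each group. Every ABSCs library was above every AFSCs library, but the difference was called only with the block (log2 fold change 0.56, SE 0.19, edgeR adjusted p = 0.117 without it; log2 fold change 0.58, SE 0.10, edgeR adjusted p = 0.00088 with it). Against ALSCs too Itga5 was higher in ABSCs with the block (log2 fold change 0.44, SE 0.10, edgeR adjusted p = 0.00486). With the block Itgav also fell in ALSCs against AFSCs (log2 fold change -0.33, SE 0.08, edgeR adjusted p = 0.011), and Itga2 rose in ABSCs against AFSCs (log2 fold change 1.35, SE 0.38, edgeR adjusted p = 0.0189).

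Itga8, which binds nephronectin, was at 2.06 ± 0.265 CPM in AFSCs, 2.44 ± 0.831 CPM in ALSCs and 0.923 ± 0.344 CPM in ABSCs, and Itga9, which binds tenascin, at 9.76 ± 2.23 CPM in AFSCs, 10.7 ± 1.23 CPM in ALSCs and 6.24 ± 0.576 CPM in ABSCs. Both were lower in ABSCs than in ALSCs (log2 fold change -1.40, SE 0.34, edgeR adjusted p = 0.0267 for Itga8; -0.78, edgeR adjusted p = 0.0245 for Itga9). With the block both fell in ABSCs against AFSCs as well (log2 fold change -1.17, SE 0.32, edgeR adjusted p = 0.018 for Itga8, and log2 fold change -0.64, SE 0.17, edgeR adjusted p = 0.0159 for Itga9). The subunits of leukocytes and platelets Itgam, Itgax, Itgad and Itgb3 were under the filter, and Itga2b and Itgae, at 2.62 ± 0.372 and 1.86 ± 0.314 CPM in AFSCs, were not called. Of the genes whose names match without being subunits, Itgb3bp, which encodes a centromere protein, was at 12.4 ± 0.459 CPM in AFSCs, 16.4 ± 0.780 CPM in ALSCs and 12.2 ± 1.12 CPM in ABSCs and was lower in ABSCs than in ALSCs, and 8.59% of its exon bases overlap Pgm2. Itgb3bp rose in ALSCs against AFSCs with the block (log2 fold change 0.40, SE 0.10, edgeR adjusted p = 0.01). Itgb3bp in ABSCs against ALSCs had a log2 fold change of -0.43 (SE 0.11, edgeR adjusted p = 0.0333). Itgb1bp1, an intracellular binder of the beta 1 tail, was at 10.6 ± 1.22 CPM in AFSCs, 12.0 ± 1.76 CPM in ALSCs and 10.6 ± 1.27 CPM in ABSCs, and Itgb1bp2 at 1.08 ± 0.330 CPM in AFSCs, 1.22 ± 0.0934 CPM in ALSCs and 1.25 ± 0.0191 CPM in ABSCs, neither of them called.

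Genes that act with the matrix and its receptors were counted from 5 lists. Shares called are given for ABSCs against AFSCs, ALSCs against AFSCs and ABSCs against ALSCs in turn. Over all genes they were 7.98%, 7.04% and 11.0%, and over the adaptors below 23.7%, 21.1% and 39.5%. Of 38 tested adaptors that link integrins to the cytoskeleton, 8 rose and 1 fell in ABSCs against AFSCs, 3 rose and 5 fell in ALSCs against AFSCs, and 12 were higher and 3 lower in ABSCs than in ALSCs (medians 0.137, -0.04 and 0.248, beside -0.004, 0.003 and -0.011 over all genes). Their summed level was 4679 to 4912 CPM in ABSCs, 4248 to 4328 CPM in AFSCs and 3782 to 3969 CPM in ALSCs. Those with the largest changes in ABSCs against AFSCs were Fermt1, a kindlin (-2.44), Tns4, a tensin (1.83), Bcar1, the scaffold of the Cas family (1.00; 132 ± 8.23 CPM in AFSCs, 113 ± 12.3 CPM in ALSCs and 264 ± 17.9 CPM in ABSCs), and Kank1 (0.65). In ALSCs against AFSCs they included Tns1 (-1.30), Kank1 (0.93) and Ptk2b (-0.76). Between ABSCs and ALSCs they were Fermt1 (-2.06), Tns1 (1.36), Bcar1 (1.22) and Tgfb1i1 (0.88).

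Of 32 genes that process or crosslink collagen, 1 rose and 3 fell in ABSCs against AFSCs. In ALSCs against AFSCs 2 rose and 2 fell, and 1 was higher and 5 lower in ABSCs than in ALSCs. The shares called were 12.5%, 12.5% and 18.8%, beside 7.98%, 7.04% and 11.0% of all genes. Creb3l2, a transcription factor of the secretory pathway, went from 8.01 ± 1.01 CPM in AFSCs to 15.9 ± 0.647 in ALSCs and 23.4 ± 2.87 CPM in ABSCs and was called in every comparison, while its relative Creb3l1 fell in ABSCs (-0.83) and in ALSCs (-0.97). Tll1, a procollagen protease, fell in ABSCs (-2.49 against AFSCs), as did the lysyl hydroxylase Plod2 (-0.63), and Pcolce, an enhancer of procollagen cleavage, rose in ALSCs (0.86 against AFSCs) where Pcolce2 fell (-0.76). Adamts14 (-1.13) and Adamts2 (-0.95), which trim procollagens, were lower in ABSCs than in ALSCs. Of 30 proteases and inhibitors the counts were 1 and 4, 2 and 2, and 2 and 5 in the same order. The shares called were 16.7%, 13.3% and 23.3%. Mmp25, a membrane-anchored metalloprotease, was at 33.9 ± 2.89 CPM in AFSCs, 17.8 ± 2.86 CPM in ALSCs and 9.13 ± 0.502 CPM in ABSCs and fell in each comparison. Timp2, a metalloprotease inhibitor, rose in ALSCs against AFSCs (1.06), and Plat, the tissue plasminogen activator, fell in ABSCs against AFSCs (-1.73).

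Of 52 other matrix glycoproteins and proteoglycans, 5 rose and 9 fell in ABSCs against AFSCs. In ALSCs against AFSCs 3 rose and 6 fell, and 6 were higher and 11 lower in ABSCs than in ALSCs. The shares called were 26.9%, 17.3% and 32.7%, beside 7.98%, 7.04% and 11.0% of all genes. Ltbp1, which tethers latent TGF-beta to the matrix, rose in ABSCs (1.08 against AFSCs; 48.4 ± 2.01 CPM in AFSCs, 51.4 ± 4.48 CPM in ALSCs and 103 ± 12.1 CPM in ABSCs), and Nell2 (-4.72), Ntn1 (-1.70) and Fbn2, a fibrillin (-1.30), fell. Thbs1, a thrombospondin, was at 22.8 ± 1.99 CPM in AFSCs, 10.5 ± 1.08 CPM in ALSCs and 43.5 ± 13.6 CPM in ABSCs, and was called in every comparison. The tenascin Tnc (-2.09), the proteoglycan Vcan (-1.14) and Ltbp2 (-1.13) fell in ALSCs against AFSCs. Of 20 receptors other than integrins the counts were 2 and 4, 2 and 3, and 4 and 2 in the order above. The shares called were 30.0%, 25.0% and 30.0%. Mcam, an adhesion molecule, was at 228 ± 10.3 CPM in AFSCs, 119.8 ± 17.3 CPM in ALSCs and 116 ± 9.07 CPM in ABSCs, with both derived cell types lower. Gpc4, a glypican, was at 90.8 ± 1.67 CPM in AFSCs, 126 ± 12.0 CPM in ALSCs and 63.1 ± 2.39 CPM in ABSCs, and Bcam, a receptor of the laminin alpha 5 chain, was lower in ALSCs than in AFSCs (-0.54) and higher in ABSCs than in ALSCs (0.72).

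**Figure D4:**
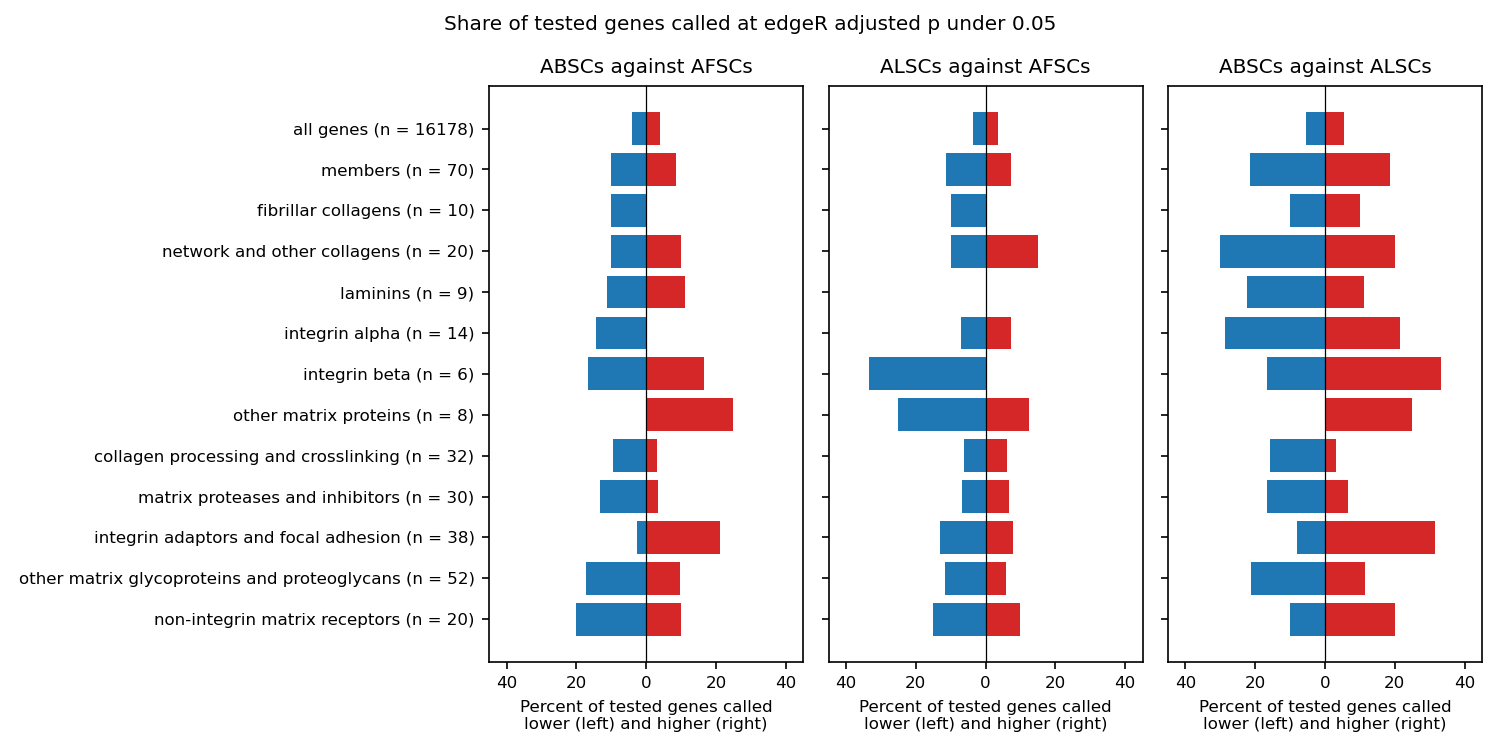
Percent of tested genes that fell (bars to the left of 0) and rose (to the right) at an edgeR adjusted p under 0.05, for all genes, the members, their classes and the 5 other lists, with 1 panel per comparison and the number of genes tested in brackets. The bars of the members exceed those of all genes in both directions in each panel, by the most in ABSCs against ALSCs (40.0% beside 11.0%).

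Other cell types that make these proteins in quantity were looked for by their markers, as bulk RNA cannot tell fewer cells of a type from less RNA per cell. Of 24 markers of visceral and parietal endoderm, 15 were tested and their summed level was 246.9 to 366.3 CPM in AFSCs, 233.4 to 383.1 CPM in ALSCs and 233.3 to 376.3 CPM in ABSCs. Ttr was at 0 in every library, Afp and Hnf4a were under the limit that a count of 0 leaves possible in every group mean, and Foxa2 was at 15.4 ± 1.16 CPM in AFSCs, 17.2 ± 2.98 CPM in ALSCs and 0.306 ± 0.141 CPM in ABSCs. Most of the summed level came from other markers of the list, whose levels are not given one by one. The endoderm markers named here therefore do not stand for the list, and absence of such cells was not shown. In ABSCs, where Col4a1 and Col4a2 were highest, 1 endoderm marker rose (Lrp2) and 3 fell against AFSCs (median log2 fold change -0.958, with 7.98% of all genes called). Against ALSCs 1 was higher and 7 lower (median -1.082, with 11.0% of all genes called). Of 15 fibroblast markers 7 were tested, with 174.7 to 178.3 CPM in AFSCs, 163.0 to 173.0 CPM in ALSCs and 183.2 to 227.2 CPM in ABSCs, most of it Vim (174 ± 30.0 CPM in ABSCs), while S100a4 was at 0 and Lum, Dcn and Fap had group means of at most 0.131 CPM. Acta2, a smooth muscle actin, rose in ABSCs against AFSCs (2.34, to 1.67 ± 0.264 CPM). Of 15 endothelial and blood markers 9 were tested, with summed levels of 62.1 to 68.5 CPM in AFSCs, 43.0 to 48.2 CPM in ALSCs and 38.3 to 55.5 CPM in ABSCs, and Tie1, Hbb-bt and Cdh5 had group means of at most 0.152 CPM. Here too most of the sum came from other markers of the list, not given one by one, so the 3 named do not stand for it. The part of these levels in the results above was not tested.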

How the data were processed

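The data were 9 poly-A RNA-seq libraries, 3 per cell type, with 2 x 150-base reads per the series record. The authors deposited raw read counts per gene, and the submitters' processing notes name HISAT2 2.0.5 and featureCounts 1.5.0-p3. The notes name mm9, but of the 54409 genes found by ID in GENCODE M21 (GRCm38) 98.33% have the same coordinates, among them all 95 members, so coordinates are read as GRCm38. The 346 rows without a gene held 0.208% to 0.227% of the counts and were left out. The kit does not mark strand, per the labels' protocols.

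From these counts, edgeR 4.0.16 in R 4.3.3 fitted all 9 libraries in 1 model of group means (TMM factors 0.963 to 1.06, filterByExpr with minimum count 10 and minimum total 15, robust quasi-likelihood F tests, 2-sided, 6 residual degrees of freedom, biological coefficient of variation 0.147). P-values were adjusted by Benjamini-Hochberg over 16178 genes, and each SE was computed by dividing the size of the change by the root of its F statistic. The procedure was tested on simulated data that held no effect of library number, so that effect was not covered. Limits from counts cover counting error only. Nothing says that libraries of a group came from separate cultures, so p-values measure the spread between these libraries, which may be technical.

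Members named with values are 22 key genes, every member called in a pairwise comparison with a group mean of at least 1 CPM, the 3 with the highest RPKM of each class, and members of head-to-head pairs. Of each other list, up to 4 called genes per comparison with the largest change are named, and markers as needed. Values of 2 genes are not reported here, though counts include them. The members, lists and rules were chosen with earlier results of these data known.

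The labels number libraries 1 to 3 in each group without saying why. Deviations from the group means correlated between libraries of 1 number at 0.464 to 0.554 for number 1, 0.197 to 0.287 for number 2 and 0.224 to 0.356 for number 3, all above the 0.1 used here to take numbers as pairing the libraries, so the fit with the number as a block is given where it changes a call of a member described with values. The main counts, the figures and the fits with 1 library left out have no block, so they do not use this pairing. Alternatives were library size only, RLE factors, DESeq2 1.42.0, no filter, a minimum count of 50, the block, each library left out, the number 1 libraries left out, protein-coding genes only, and smaller sets of members.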

Additional observations from a re-analysis of the deposited data

How the results depend on the processing

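Of 51 calls of members with a group mean of at least 1 CPM (32 genes), 22 held in every alternative and 0 changed direction. DESeq2, RLE factors, a minimum count of 50 where the gene was tested, protein-coding genes only, the replicate block and leaving out the libraries numbered 1 took away 0 calls. Library size only took away 3 (Col12a1 and Itgav in ABSCs against ALSCs, Itgb2 in ALSCs against AFSCs) and no filter 3 (Col4a6, Itgb3bp and Lamb2 in ABSCs against ALSCs). Every other loss came from leaving out 1 library, which also leaves fewer libraries in the fit. Of counts of calls over all alternatives, 137 stayed within 1.5 times and 64 did not.

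In ABSCs against AFSCs, DESeq2 called 11 members higher and 12 lower, with 1737 genes called in all, beside 1291 with edgeR. With the replicate block the pairing gave 13 and 21 there, 10 and 16 in ALSCs against AFSCs, 20 higher in ABSCs against ALSCs, and 50 for any difference, with 3132, 3590, 4605 and 5992 genes in all. Without the 3 libraries numbered 1 the members were 15 and 24, 9 and 26, 27 higher, and 54, and all genes 4622, 4122, 5225 and 7121. The cause was not tested. Leaving out 1 library in turn gave, for ABSCs against AFSCs, 4 to 10 members higher and 4 to 12 lower (667 to 1723 genes), for ALSCs against AFSCs 2 to 7 and 4 to 9 (345 to 1522), for ABSCs against ALSCs 7 to 17 and 4 to 15 (846 to 2337), and for any difference 18 to 31 members (1395 to 3048).

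Signs turned 21 times in 11 differences, the largest being that of Loxl2 in ALSCs against AFSCs (log2 fold change 0.29). None of them was called in either fit, and the cause was not tested. Leaving out 1 library gave these ranges of the log2 fold change. For ALSCs against AFSCs they were -0.045 to 0.147 (Col4a2), -0.092 to 0.3231 (Itga5), -0.4515 to 0.6295 (Loxl2), -0.041 to 0.3244 (Nid1) and -0.4464 to 0.4878 (Tgfbi). For ABSCs against AFSCs they were -0.0345 to 0.1312 (Itga6), -0.0143 to 0.111 (Itgav) and -0.0518 to 0.0223 (Lamb2), and for ABSCs against ALSCs -0.1483 to 0.2174 (Nid1). Without the libraries numbered 1 the value became -0.0921 (Col4a2), -0.0475 (Lama1), -0.11 (Loxl2), -0.0323 (Nid1) and 0.19 (Tgfbi) for ALSCs against AFSCs, and -0.0414 (Itgav) for ABSCs against AFSCs. With library size only it became 0.0035 (Lamc1, ALSCs against AFSCs) and -0.0536 (Nid1, ABSCs against ALSCs).

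Only 3 libraries per group limit the precision, and members under about 1 CPM rest on few reads. By CPM in place of RPKM, 13 of the 18 leading members of the 6 classes stayed among the leading 3, and of the other matrix proteins 1 of 3 did, with Sparc at rank 5 and Nid2 at rank 4.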

Other observations

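Over the 9 libraries, which fall into 3 cell types and share their group means, the genes outside the set whose log2 CPM followed Col4a1 most closely were Gfra2 (Pearson r = 0.979), Tmprss13 (0.977), Tex2 (0.974), Unc5b (0.973) and Itpr1 (0.971). The closest members included Col4a2 (0.949), Itgb5 (0.934), Lama1 (0.900) and Col9a3 (0.836). These values are a description, chosen as the highest of many.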
